A study of Rattus norvegicus with 14 samples.

Results

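Pth1r encodes the receptor shared by parathyroid hormone and parathyroid hormone-related protein, and Pthlh encodes the related protein, the ligand of that receptor made in tissues. Both genes were followed across 7 rat cell lines on every probe the arrays carry for them. Each gene had 1 probe with 1 spot, so that 2 of the 41012 non-control probes, and 2 of the 35508 gene names these carry, are described. The pair was selected on measured values, namely the difference between the stem cell lines and the mesenchymal control line in an earlier analysis of these arrays, and that difference is therefore given as a description with no test.

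The receptor is a class B G protein-coupled receptor that couples through Gs to adenylyl cyclase, cyclic AMP and protein kinase A, and through Gq to phospholipase C and protein kinase C. In bone and kidney it carries the endocrine action of parathyroid hormone, and in the growth plate its ligand Pthlh acts locally on chondrocytes. In the mouse embryo the ligand and receptor are known from the earliest endoderm, where the peptide promotes formation of parietal endoderm, the cell layer that lays down the laminin and type IV collagen of Reichert's membrane.

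The study compared stem cell lines described by the submitters as hypoblast stem cells, the hypoblast being the primitive endoderm of the blastocyst. Fi1 and Fi2, from Fischer rats, and Wk8, from a Wistar-Kyoto rat, were derived from blastocysts. CL19, 3C3 and RMAPC-1 were derived from bone marrow of Fischer rats, and RClone-2, also Fischer, was the single mesenchymal control line. Total RNA was hybridised to 14 one-colour arrays, arrays A and B for each line, on 4 slides. The labels give no treatment or allele, and do not say whether A and B came from separate cultures, so the line was taken as the replicate and p-values measure the spread between lines. RClone-2 is 1 line, and no value set against it has a replicate on that side. Slides 1 and 3 held Fi1, Fi2, Wk8 and CL19, while slides 2 and 4 held 3C3, RMAPC-1 and RClone-2, so the comparison of origins is partly one of slides.

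Signals are given as log2 of the processed intensity relative to the 75th percentile of the same array, a level of 0 being the signal below which 75% of spots lay. This scaling signal ranged between 745.7 and 891.5 in blastocyst lines and between 558.9 and 660.1 in bone marrow lines, and RClone-2 gave 599 and 630.7. Between 61.6% and 67.9% of probes were well above background on each array. All 6 primitive endoderm markers fixed for checking the lines, Gata4, Gata6, Sox17, Sox7, Foxa2 and Pdgfra, were higher in the stem cell lines than in RClone-2 (limma, adjusted p under 0.05), with a median difference of 8.03 on the log2 scale. Over all 29300 probes tested, 47.7% passed in this comparison, 25.3% higher and 22.5% lower, with a median difference of 0.04. All 7 measured mesenchymal markers were lower, with a median of -7.23, Col1a2 at -11.67 and Prrx1 at least 770-fold. The eighth, Lum, was not well above background on any array. Of the markers of other cells, Pecam1 was at least 15.1-fold and Eomes at least 7.40-fold higher in the stem cell lines and Des was lower (-2.37), Cdh5 and Cdx2 did not pass, and Myog was above background on 1 array and the 3 Ptprc probes on 6, 0 and 0 of 14 arrays. The part of these markers in the results on Pth1r and Pthlh was not tested.

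The probe of Pth1r, printed because all receptor values below come from these 60 bases, lies on rat chromosome 8 of the rn4 build at chr8:115100936-115100995 on the minus strand. Per the file annotation it starts at base 1311 of the transcript. No exon map of that build was used here.

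Pth1r probe: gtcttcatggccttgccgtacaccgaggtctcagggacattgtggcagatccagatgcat

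Its GC content is 55.0%. The Pthlh probe, also of 60 bases, lies at chr4:184887732-184887791 on the minus strand, starts at base 997 of its transcript and has a GC content of 35.0%. With 1 probe a gene, neither the levels of other transcript forms nor the agreement between probes could be examined, and the level of one probe is not set against that of the other.

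Pth1r gave strong signals in all 6 stem cell lines. In the blastocyst lines the processed intensity was 71536 and 68185 in Fi1, 72622 and 86490 in Fi2, and 87826 and 91989 in Wk8 on arrays A and B. In the bone marrow lines it was 35872 and 27350 in CL19, 22733 and 39697 in 3C3, and 26044 and 35762 in RMAPC-1. In RClone-2 it was 26.1 and 13.6, still flagged as well above background but close to the lowest signals with that flag on those arrays, 8.56 and 6.83. No Pth1r spot was saturated, and the receptor was high on every stem cell array and near the detection limit on both mesenchymal arrays.

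On the log2 scale relative to the 75th percentile, Pth1r stood at 6.39 and 6.32 in Fi1, 6.35 and 6.75 in Fi2, and 6.62 and 6.95 in Wk8. It stood at 5.83 and 5.58 in CL19, 5.27 and 6.04 in 3C3, and 5.54 and 5.76 in RMAPC-1, and at -4.52 and -5.53 in RClone-2. No bone marrow array reached the lowest blastocyst array, and how common this was over all probes was not counted.

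**Figure D1:**
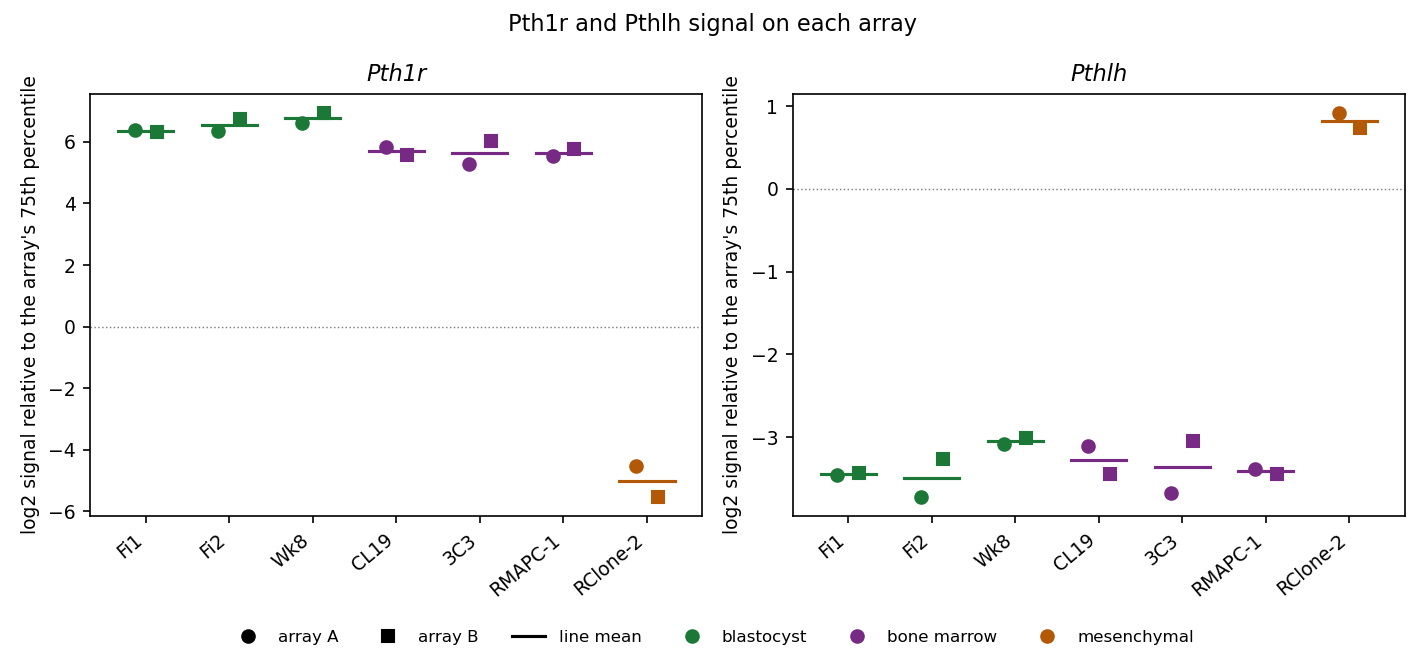
Log2 signal of Pth1r (left) and Pthlh (right) relative to the 75th percentile of the array, for arrays A (circles) and B (squares) of each line, with the line mean as a bar and colours for the 3 groups. Pth1r lies between 5.27 and 6.95 in the 6 stem cell lines and below -4 in RClone-2, while Pthlh lies between -3.72 and -3.01 in the stem cell lines and at 0.92 and 0.73 in RClone-2.

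By line mean the order for Pth1r was Wk8 (6.78), Fi2 (6.55), Fi1 (6.35), CL19 (5.71), 3C3 (5.66), RMAPC-1 (5.65) and RClone-2 (-5.02). The steps between neighbouring blastocyst lines, 0.23 and 0.20, were smaller than the 0.40 between the arrays of Fi2, and the 3 bone marrow lines lay within 0.06 of each other. The step between Fi1 and CL19 was 0.65, and that between RMAPC-1 and RClone-2 was 10.68. Arrays of one line differed by 0.07 in Fi1 and by up to 0.77 in 3C3 among stem cell lines, and by 1.01 in RClone-2, so the close line means of the bone marrow lines cover a wider spread of arrays.

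Pth1r was higher in blastocyst than in bone marrow lines. The line means averaged 6.56 ± 0.22 in blastocyst lines and 5.67 ± 0.03 in bone marrow lines (SD, n = 3 lines each), a difference of 0.89 ± 0.14 (SE), or 1.86-fold, with a 95% interval of 0.50 to 1.28 and a limma adjusted p of 0.0105. All 3 blastocyst lines lay above all 3 bone marrow lines, a separation whose share over all probes was not counted. Calls of this kind were common on these arrays, since 32.4% of the 29300 probes tested passed in either direction, 9.13% higher and 23.3% lower in blastocyst lines, around a median difference of -0.20 over all probes. Of the calls, 28.2% were higher in blastocyst lines, a share that was 43.3% with quantile normalization, 45.6% with the percentile taken over probes above background on all arrays, and 84.7% without scaling. Relative to the median of all probes, Pth1r was between 0.92 and 1.28 higher under every setting run. Of all probes, Pth1r ranked 2485 by the size of a difference in favour of the blastocyst lines.

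Fits that took the slides into account gave the receptor a difference of nearly the same size, but no call. It was 0.86 with the slide pair as a term in the fit, with slide as a block, and within slides 1 and 3. Slides 1 and 3 held all blastocyst lines and, of the bone marrow lines, CL19 alone. Each of these fits therefore sets the blastocyst lines against CL19. From the B arrays alone the difference of Pth1r was 0.88 with a limma adjusted p of 0.0586.

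**Figure D2:**
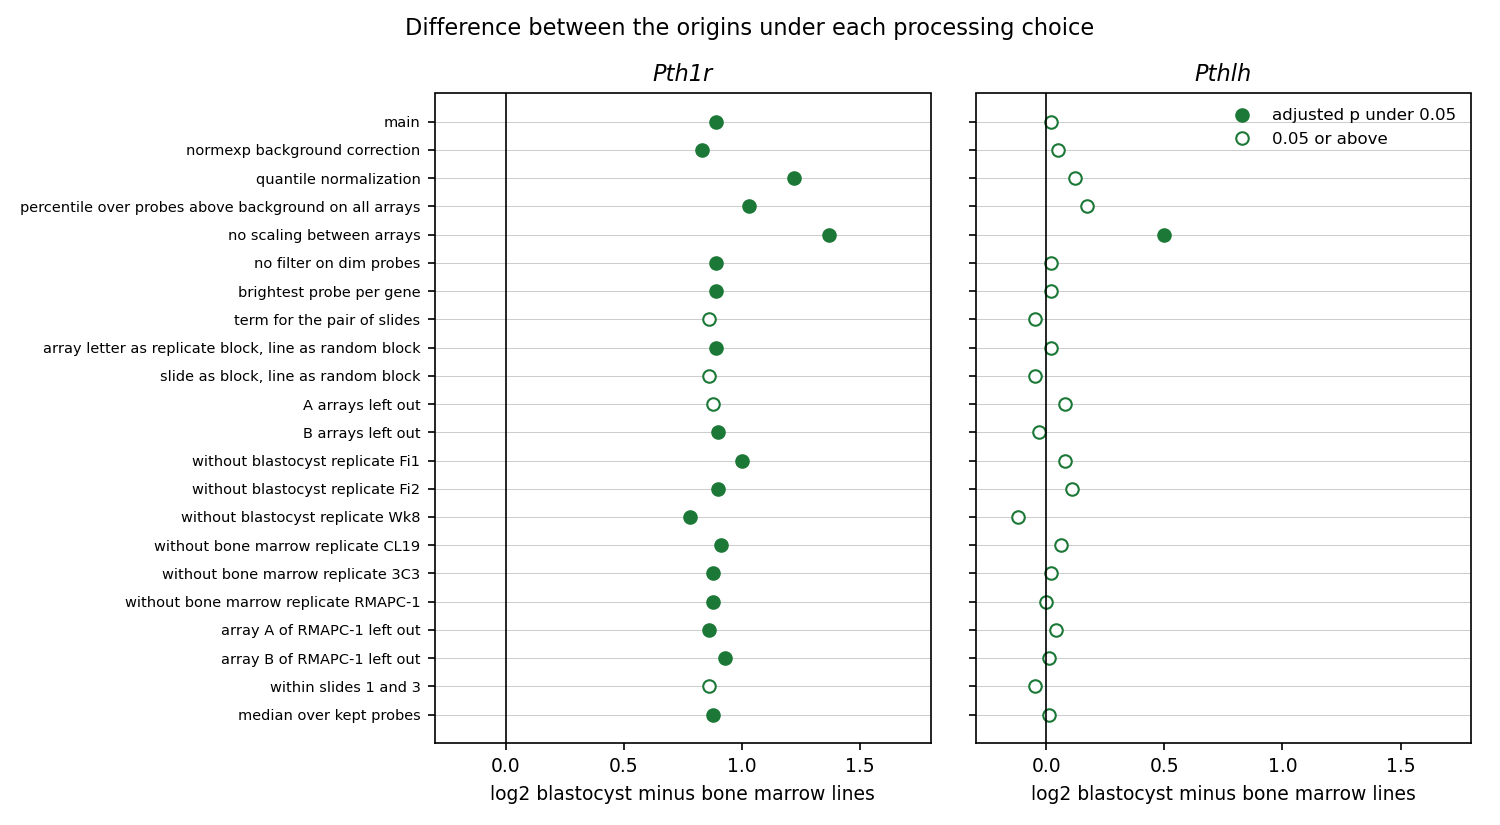
Log2 difference between blastocyst and bone marrow lines for Pth1r (left) and Pthlh (right) under each processing choice listed on the vertical axis, filled where the limma adjusted p is under 0.05. Pth1r ranges from 0.78 to 1.37 and passes in 17 of 21 alternatives, and Pthlh ranges from -0.12 to 0.50 and passes in 1 of 21, the one with no scaling between arrays.

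Set beside RClone-2, Pth1r was among the most unequal genes on the arrays, as its selection implies. The stem cell lines, weighting both origins equally, averaged 11.14 above RClone-2 on the log2 scale, a ratio of about 2260. The ratio to RClone-2 was about 3080 for the blastocyst lines and 1660 for the bone marrow lines. The difference of 11.14 ranked 11th among all 29300 probes in its direction, and 3rd among the 21286 probes well above background on all 14 arrays. Its exact size rests on 2 dim spots: with normexp background correction the ratio was 523, from the B arrays alone 3480 and from the A arrays alone 1470, and within slides 2 and 4 it was 1640. Because RNA of whole cultures was measured, fewer cells with the transcript and less transcript per cell cannot be told apart.

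Pthlh showed the opposite arrangement, with low signals in every stem cell line and a moderate one in RClone-2. The processed intensity in blastocyst lines was 77.6 and 79.4 in Fi1, 67.7 and 83.1 in Fi2, and 106 and 92.7 in Wk8. In bone marrow lines it was 72.7 and 52.4 in CL19, 45.8 and 73.1 in 3C3, and 53.8 and 60.8 in RMAPC-1. In RClone-2 it was 1130 and 1043, and every array of every line flagged the spot as well above background. The ligand transcript was thus measured in all lines, with the 12 stem cell arrays together at the low end.

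Scaled to the array, Pthlh stood at -3.46 and -3.43 in Fi1, -3.72 and -3.27 in Fi2, and -3.08 and -3.01 in Wk8. It stood at -3.11 and -3.45 in CL19, -3.68 and -3.05 in 3C3, and -3.38 and -3.44 in RMAPC-1. In RClone-2 it stood at 0.92 and 0.73. By line mean the order was RClone-2 (0.82), Wk8 (-3.04), CL19 (-3.28), 3C3 (-3.36), RMAPC-1 (-3.41), Fi1 (-3.44) and Fi2 (-3.49). The lines of both origins were interleaved, and no step between neighbouring stem cell lines exceeded 0.24, against 0.64 between the arrays of 3C3.

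Pthlh averaged -3.33 ± 0.25 in blastocyst lines and -3.35 ± 0.07 in bone marrow lines (SD, n = 3 lines each). The difference was 0.02 ± 0.15 (SE), with a 95% interval of -0.40 to 0.45 and a limma adjusted p of 0.915, so no difference between the origins was detected and one of up to about 0.45 in size lies within the interval. The sign changed with the treatment of slides, and without scaling between arrays the difference was 0.50 with an adjusted p of 0.0428, while the median over all probes was then 0.28. As a description, the stem cell lines differed from RClone-2 by -4.16, a 17.9-fold lower level, with the blastocyst lines at -4.15 and the bone marrow lines at -4.17. With normexp correction the ratio was 8.82.

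Of the other ligands and receptors of the family, Pth2r, a related receptor that responds to the hypothalamic peptide TIP39, was detected in all 6 stem cell lines and not in RClone-2. Its line means were -0.27 in Fi1, -0.21 in Fi2, -2.49 in Wk8, -0.72 in CL19, -2.52 in 3C3 and -1.96 in RMAPC-1. It was at least 31.3-fold higher in stem cell lines than in RClone-2 (adjusted p = 0.00232), where it was not well above background, and it spread over both origins, with a difference of 0.75 ± 0.76 (adjusted p = 0.477). The probe of Pth, the hormone itself, was well above background on 0 of 14 arrays, and Pth2, which encodes TIP39, was not analysed here.

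A lower bound such as that of Pth2r compares the mean of the bright lines with the lowest signal flagged as well above background on the dim arrays, or with the probe's own signal where that was higher. Each gene below is represented by its brightest probe. Over all the lists, markers included, 149 genes other than Pth1r and Pthlh were measured. Of these, 45 passed between the origins, 22 higher and 23 lower, which is 30.2% beside 32.4% of all probes. Without scaling between arrays 46 were higher and 7 lower, with quantile normalization 25 and 15, and with the percentile over probes above background on all arrays 25 and 14. Between the stem cell lines and RClone-2, 104 passed, which is 69.8% beside 47.7% of all probes. The lists were chosen with earlier results of these data known and include cell type markers. Their shares beside those of all probes are therefore a description with no test. Every limma call between the origins was lost once the slide pair was a term in the fit, which left 0 list genes and 0 of all probes past the threshold, although 7577 probes had an unadjusted p under 0.05, and likewise within slides 1 and 3, with 6180 such probes. In both fits CL19 alone stands for the bone marrow lines against the blastocyst lines. Of 47 calls between the origins for genes named by the rule, 24 were lost without 3C3 and 24 without RMAPC-1. Without array A of RMAPC-1 alone 11 were lost, those of Crtc1, Gata6, Gcgr, Gnas, Il6, Prkch, Rgs3, Sik1, Slc2a10, Stra6 and Twist2. Without array B of RMAPC-1 alone 4 were lost, those of Akap1, Grk6, Sik1 and Stra6. With normexp correction 29 were lost, and 26 without the A arrays. The 47 include genes chosen below for likeness to Pth1r, whose calls are a description with no test.

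**Figure D3:**
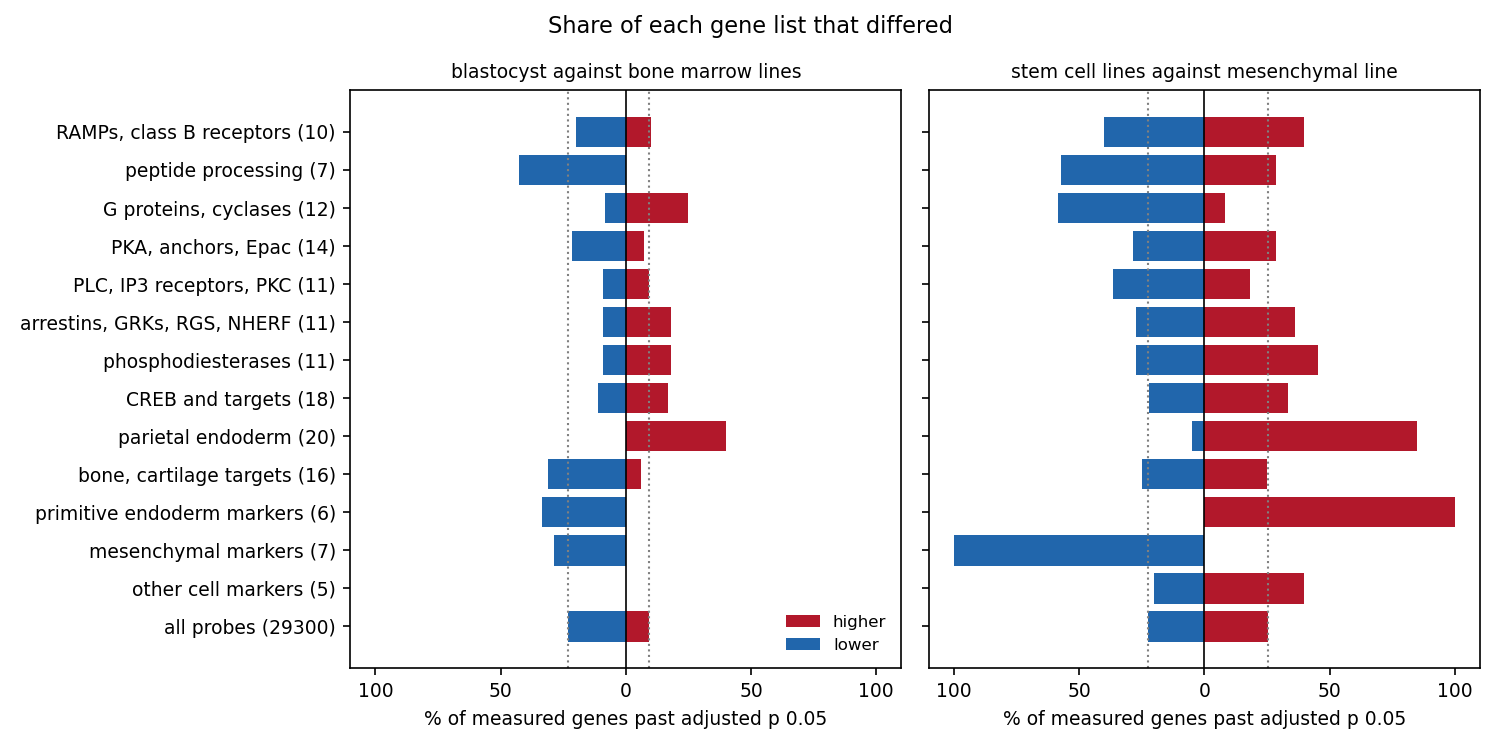
Percentage of the measured genes of each list (number in brackets) that were higher (red, to the right) or lower (blue, to the left) at a limma adjusted p under 0.05, for blastocyst against bone marrow lines (left) and stem cell lines against RClone-2 (right). Dotted lines mark the shares over all 29300 probes, and the parietal endoderm list has 8 of 20 genes higher in the left panel and 17 of 20 in the right one.

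Among receptor-associated proteins and related class B receptors, Ramp1 followed the direction of the receptor in both comparisons. RAMPs are single-pass partners that alter trafficking and ligand choice of class B receptors. Ramp1 had line means of 2.52 in Fi1, 1.22 in Fi2 and 2.28 in Wk8, against -0.18 in CL19, -0.16 in 3C3 and -0.41 in RMAPC-1. The RMAPC-1 mean averages discordant arrays, at -1.49 (A) and 0.67 (B). Ramp1 was 4.79-fold higher in blastocyst lines (log2 difference 2.26 ± 0.35, adjusted p = 0.00993) and at least 148-fold higher in stem cell lines than in RClone-2. Ramp3 went the other way, with line means of -6.79 to -3.82 in stem cell lines and 1.74 in RClone-2, a difference of -7.58 (adjusted p = 0.00207), and it was well above background on 4 of 12 stem cell arrays. Ramp2, read for completeness and outside the naming rule, was at -2.51 to -1.13 in stem cell lines and -1.65 in RClone-2 and passed in neither comparison.

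Receptors for other peptides of the class were dim. Gipr, the receptor of the incretin GIP, was at least 8.86-fold, and Sctr, the secretin receptor, at least 6.96-fold higher in stem cell lines than in RClone-2. Gcgr, the glucagon receptor, was 2.62-fold lower in blastocyst than in bone marrow lines (adjusted p = 0.0153), as was Crhr2, a receptor of the urocortins (-0.58, adjusted p = 0.0140). Without array A of RMAPC-1 the Gcgr difference was -1.14 and did not pass (limma adjusted p = 0.106). Of the 10 genes of the list that were measured, 1 was higher and 2 were lower in blastocyst lines (median -0.11, against -0.20 over all probes, of which 9.13% were higher and 23.3% lower). The count was 2 higher and 1 lower without scaling between arrays, and 1 and 0 with normexp correction. Of the 10 genes, 4 were higher and 4 lower in stem cell lines than in RClone-2 (median 0.36). Over all probes these shares were 25.3% and 22.5%, with a median of 0.04. Calcr, Calcrl and Vipr1, which encode receptors of calcitonin, of calcitonin gene-related peptide and of VIP, were well above background on 0 of 14 arrays.

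Enzymes that cut and trim peptide precursors differed widely between lines. Furin, a proprotein convertase of the secretory pathway, had line means of 2.75, 2.40 and 1.72 in Fi1, Fi2 and Wk8, against 3.36, 3.47 and 3.66 in CL19, 3C3 and RMAPC-1, and was 2.31-fold lower in the lines from blastocysts (adjusted p = 0.0234). The related convertase Pcsk6 was 18.7-fold lower in lines from blastocysts (adjusted p = 0.0182), with line means of -7.42 in Fi1, -5.88 in Fi2 and -4.02 in Wk8, against -2.27 to -1.12 in the bone marrow lines. Array A of Fi1, at -8.60, was not above background, and array B was at -6.23, so the size of this difference rests partly on a background signal. Pcsk6 was also lower in stem cell lines than in RClone-2 (-4.33, adjusted p = 0.0229), whereas Furin was higher (1.38, adjusted p = 0.0228).

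Pam, the enzyme that amidates peptide ends, was 214-fold lower in stem cell lines, where its line means ran between -2.83 and -1.91, than in RClone-2, where it was 5.31. On the RMAPC-1 arrays Pam was at -1.24 (A) and -3.31 (B). Mme, the peptidase neprilysin, was 27.0-fold higher in stem cell lines. Pcsk2, a convertase of neuroendocrine granules, was lower in blastocyst than in bone marrow lines (-0.95, adjusted p = 0.0103), with 2 of 6 blastocyst and 5 of 6 bone marrow arrays above background, and its second probe was not well above background on any array of these lines. Of 7 measured genes 3 were lower in blastocyst lines and 4 did not pass (median -0.39), beside 9.13% higher and 23.3% lower over all probes. In stem cell lines 2 were higher and 4 lower than in RClone-2 (median -0.76), beside 25.3% and 22.5% over all probes.

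Of the G proteins and adenylyl cyclases, Gnas, whose product is the Gs subunit that carries the receptor's signal to cyclase, was high in every line. Its line means were 6.15 in Fi1, 6.11 in Fi2 and 6.20 in Wk8, against 5.88 in CL19, 5.61 in 3C3 and 5.57 in RMAPC-1, and 6.21 in RClone-2. It was 1.38-fold higher in blastocyst than in bone marrow lines (adjusted p = 0.0372), a call that its second probe did not share (0.32, adjusted p = 0.600), and it did not pass against RClone-2 (-0.29, adjusted p = 0.201). Gna12, another alpha subunit, was 2.77-fold higher in blastocyst lines (adjusted p = 0.00669).

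The cyclases themselves were mostly lower in stem cell lines than in RClone-2. On the log2 scale the difference from RClone-2 was -3.40 for Adcy6, and -8.41 for Adcy5, which was above background on 7 of 12 stem cell arrays. Adcy3, above background on 3 of 12 stem cell arrays (adjusted p = 0.000118), and Adcy2 (adjusted p = 0.00196) were lower as well, Adcy2 not being well above background on any stem cell array. Adcy6 differed in both comparisons, with line means of 0.94 in Fi1, 0.95 in Fi2 and 2.08 in Wk8, against -0.84, -0.72 and -1.03 in CL19, 3C3 and RMAPC-1, and 3.63 in RClone-2. The RMAPC-1 mean of Adcy6 averages arrays at -2.08 (A) and 0.01 (B). Adcy6 was 4.56-fold higher in blastocyst than in bone marrow lines (adjusted p = 0.00987), and Adcy9 was lower by a factor of 2.71 (adjusted p = 0.0174). The second probe of Adcy6 was at least 1.48-fold higher in blastocyst lines (limma adjusted p = 0.0251), with 0 of 6 bone marrow arrays above background. Against RClone-2 that probe did not pass (-1.88, limma adjusted p = 0.0596). Of 12 measured genes 3 were higher and 1 lower in blastocyst lines (median -0.03), beside 9.13% and 23.3% over all probes. In stem cell lines 1 was higher and 7 lower than in RClone-2 (median -0.91), beside 25.3% and 22.5% over all probes.

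Downstream of cyclic AMP, genes of protein kinase A and of the proteins that inhibit or anchor it passed in both directions. Prkaca, the alpha catalytic subunit, was 1.58-fold lower in blastocyst than in bone marrow lines (adjusted p = 0.0278). Pkib, an inhibitor peptide of the kinase, had line means of 1.44, 0.12 and 0.82 in Fi1, Fi2 and Wk8, against 2.18, 2.46 and 2.91 in CL19, 3C3 and RMAPC-1, and was 3.31-fold lower in lines from blastocysts (adjusted p = 0.0204) and at least 242-fold higher in stem cell lines than in RClone-2. Akap5, an anchoring protein of the kinase, was 4.60-fold higher in blastocyst lines (adjusted p = 0.00618) and 50.6-fold higher in stem cell lines than in RClone-2, where it was above background on 1 of 2 arrays.

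Akap1, an anchor at mitochondria, was lower in blastocyst lines by its brightest probe (-0.62, adjusted p = 0.0293), while its second probe gave 0.53 with an adjusted p of 0.0574. Rapgef3, the cyclic AMP-activated exchange factor Epac, was at least 7.52-fold higher in stem cell lines than in RClone-2. Pkia, the alpha inhibitor peptide, was at least 1.71-fold lower. Of 14 measured genes 1 was higher and 3 lower in blastocyst lines (median -0.28), beside 9.13% and 23.3% over all probes. In stem cell lines 4 were higher and 4 lower than in RClone-2 (median -0.13), beside 25.3% and 22.5% over all probes.

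In the phospholipase C arm, Itpr2, an IP3-gated calcium channel, was 6.05-fold higher in blastocyst than in bone marrow lines (adjusted p = 0.00748), with line means of -1.90, -2.56 and -3.09 in Fi1, Fi2 and Wk8, against -4.79, -5.10 and -5.47 in CL19, 3C3 and RMAPC-1. Of its other 2 probes, 1 passed (at least 1.36-fold higher, adjusted p = 0.0281, with 0 of 6 bone marrow arrays above background) and 1 did not (1.60, adjusted p = 0.0505). Itpr3, its relative, was lower in stem cell lines than in RClone-2 (-5.72), as was Plcb1, a phospholipase activated by Gq, at least 1.95-fold.

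Prkcz, an atypical protein kinase C that works in cell polarity, was at least 242-fold higher in stem cell lines than in RClone-2, with line means of 1.19 to 2.11. Prkch, another isoform of the kinase, was 1.88-fold lower in lines from blastocysts (adjusted p = 0.0297). Plcb4, above background on 1 of 12 stem cell arrays, was lower in stem cell lines than in RClone-2 (adjusted p = 0.0119). Of 11 measured genes 1 was higher and 1 lower in blastocyst lines (median -0.05), beside 9.13% and 23.3% over all probes. In stem cell lines 2 were higher and 4 lower than in RClone-2 (median -0.62), beside 25.3% and 22.5% over all probes.

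Proteins that scaffold or silence the receptor included some that were high where it was high. Pdzk1 and Nherf2, PDZ scaffolds of the family that binds the receptor's tail, were 154-fold and 11.3-fold higher in stem cell lines than in RClone-2. Pdzk1 had line means of 1.44, 2.32 and 0.23 in Fi1, Fi2 and Wk8, against 3.16, 3.05 and 2.45 in CL19, 3C3 and RMAPC-1, and did not pass between the origins (-1.56, adjusted p = 0.0702). Arrb1, an arrestin that uncouples activated receptors, was 10.2-fold lower in stem cell lines, with line means between -3.35 and -2.90 and 0.29 in RClone-2. The arrestin Arrb2, outside the naming rule, went the other way and was 5.99-fold higher in stem cell lines (limma adjusted p = 0.000289). Rgs2, which speeds the turn-off of Gq, was 15.9-fold lower in stem cell lines than in RClone-2.

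Between the origins 3 genes of the group passed. Grk5 and Grk6, kinases that phosphorylate activated receptors, differed by 0.71 (adjusted p = 0.0334) and -0.45 (adjusted p = 0.0432), and Rgs3 by 0.83 (adjusted p = 0.0420). Without scaling between arrays the difference of Grk6 was 0.03. Without array B of RMAPC-1 the Grk6 difference was -0.33 and did not pass (limma adjusted p = 0.222). Of 11 measured genes 2 were higher and 1 lower in blastocyst lines (median -0.17), beside 9.13% and 23.3% over all probes. In stem cell lines 4 were higher and 3 lower than in RClone-2 (median 0.17), beside 25.3% and 22.5% over all probes.

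Phosphodiesterases, which end the cyclic AMP signal, differed by isoform. Pde8a was 7.37-fold higher in blastocyst than in bone marrow lines (adjusted p = 0.00652), with line means of -2.33, -2.76 and -1.62 in Fi1, Fi2 and Wk8, against -5.49, -4.70 and -5.16 in CL19, 3C3 and RMAPC-1, and it was at least 6.29-fold higher in stem cell lines than in RClone-2. Pde4d was 19.0-fold higher in stem cell lines, with line means of 0.83 to 1.49 and -2.94 in RClone-2. Pde4b, a relative of Pde4d, was lower in stem cell lines (adjusted p = 0.00175), by a factor that is not given because it was above background on 1 of 12 stem cell arrays.

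Pde2a was at least 1.44-fold higher in blastocyst lines, where 4 of 6 arrays were above background, than in bone marrow lines, and Pde11a was 2.11-fold lower (adjusted p = 0.00803). Pde1c was at least 1.62-fold lower in stem cell lines than in RClone-2. Of 11 measured genes 2 were higher and 1 lower in blastocyst lines (median 0.01), beside 9.13% and 23.3% over all probes. In stem cell lines 5 were higher and 3 lower than in RClone-2 (median -0.01), beside 25.3% and 22.5% over all probes.

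**Figure D4:**
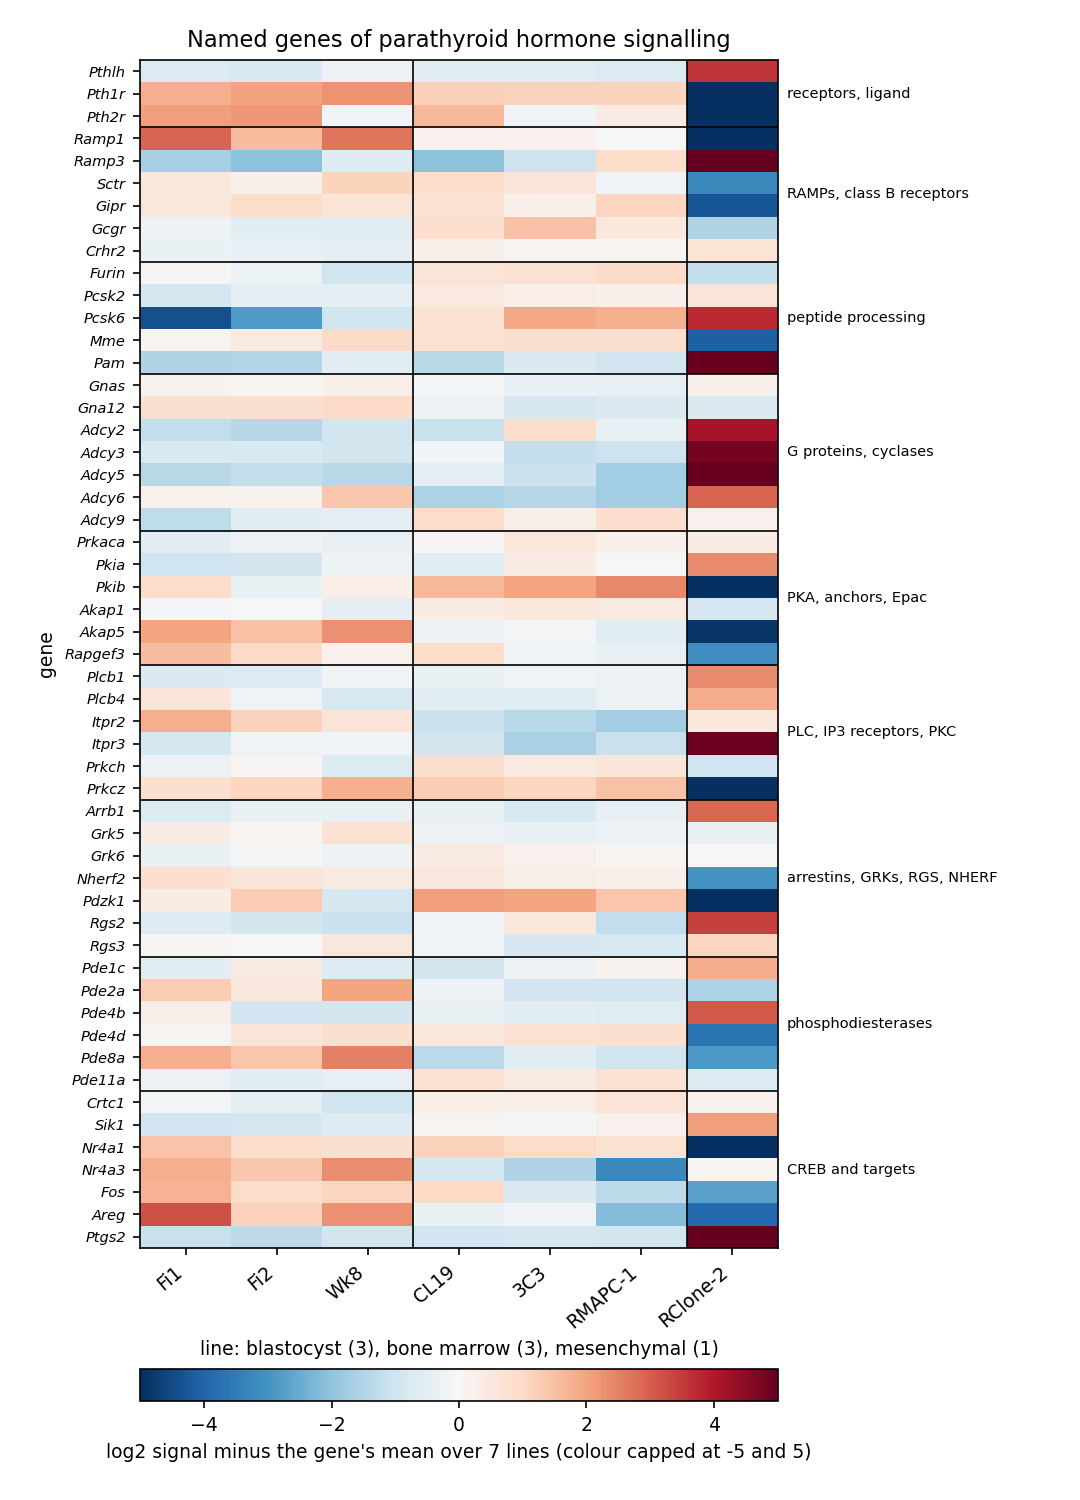
Line means of the named genes of the receptor's signalling path, as log2 signal minus the gene's mean over the 7 lines, red above and blue below it, in rows grouped by role and columns by line. The RClone-2 column holds the extremes of both signs, with Pth1r, Pth2r, Ramp1, Pkib and Prkcz low there and Pthlh, Ramp3, Pam, Adcy5 and Ptgs2 high.

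Among CREB, its cofactors and genes it induces, Nr4a3 and Areg were higher in blastocyst than in bone marrow lines. Nr4a3, an orphan nuclear receptor of the immediate early class, had line means of -2.24, -2.73 and -1.74 in Fi1, Fi2 and Wk8, against -4.95, -5.57 and -7.31 in CL19, 3C3 and RMAPC-1, a 13.1-fold difference (adjusted p = 0.0122) with 3 of 6 bone marrow arrays above background. Of its other 2 probes, 1 passed (4.33, adjusted p = 0.00516, with 2 of 6 such arrays) and 1 did not (1.84, adjusted p = 0.0559). Areg, which encodes the EGF receptor ligand amphiregulin, had line means of 3.64, 1.62 and 2.75 in Fi1, Fi2 and Wk8, against 0.12, 0.28 and -1.69 in CL19, 3C3 and RMAPC-1, and -3.42 in RClone-2. It was 8.59-fold higher in blastocyst lines (adjusted p = 0.0243) and 23.2-fold higher in stem cell lines than in RClone-2 (adjusted p = 0.00960).

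The other immediate early genes did not follow one pattern. Nr4a1 was 121-fold higher in stem cell lines than in RClone-2, with line means of 2.83 to 3.50 and no difference detected between the origins (0.10, adjusted p = 0.725). Fos was 8.86-fold higher in stem cell lines than in RClone-2 (adjusted p = 0.0215). Ptgs2, the inducible cyclooxygenase, was not well above background on any stem cell array and was at least 34.1-fold lower than in RClone-2. Crtc1, a CREB cofactor above background on 4 of 6 blastocyst arrays, was 1.93-fold lower in lines from blastocysts (adjusted p = 0.0365). Sik1, a kinase that restrains such cofactors, was at 1.39 on array A and -2.88 on array B of RMAPC-1, the other 4 bone marrow arrays lying between -1.53 and -0.49 and the blastocyst arrays between -2.22 and -1.55. Its difference between the origins, -0.91 (adjusted p = 0.00978), was -0.20 without that array A (adjusted p = 0.816) and -1.63 without array B (adjusted p = 0.0987), so the call rests on the mean of 2 discordant arrays. Against RClone-2 it was -2.45 (adjusted p = 0.000163), a call lost without array B (-2.10). Of 18 measured genes 3 were higher and 2 lower in blastocyst lines (median 0.22), beside 9.13% and 23.3% over all probes. In stem cell lines 6 were higher and 4 lower than in RClone-2 (median -0.18), beside 25.3% and 22.5% over all probes.

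Genes of parietal endoderm and its basement membrane were higher in blastocyst lines in 8 of 20 measured cases, and 12 did not pass, with a median of 0.30 against -0.20 over all probes, where 9.13% of probes were higher. The count was 5 without RMAPC-1 or without the A arrays, 4 with normexp correction and 13 without scaling between arrays. Nid1, the matrix linker nidogen, was 16.1-fold higher in blastocyst lines (adjusted p = 0.00584), with line means of 4.36, 3.62 and 5.24 in Fi1, Fi2 and Wk8, against 0.91, 0.21 and 0.07 in CL19, 3C3 and RMAPC-1, and its other 2 probes passed in the same direction. On the RMAPC-1 arrays the brightest Nid1 probe was at -0.96 (A) and 1.11 (B). Plat, tissue plasminogen activator, was 9.48-fold (adjusted p = 0.00662), Stra6, a retinol transporter, 3.08-fold (adjusted p = 0.0399) and Lamc1, the laminin gamma chain, 3.03-fold higher (adjusted p = 0.0109). Snai1, named after its values were seen because the gene is known as a target of the peptide in mouse endoderm, was 2.46-fold higher (adjusted p = 0.00705), with 4.20, 3.91 and 4.39 in Fi1, Fi2 and Wk8, against 2.84, 3.01 and 2.75 in CL19, 3C3 and RMAPC-1.

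Against RClone-2, 17 of the 20 genes were higher in stem cell lines and 1 was lower, with a median of 2.09. Over all probes 25.3% were higher and 22.5% lower in this comparison, with a median of 0.04. This list too was chosen with earlier results known, so its shares in both comparisons are a description. The laminin alpha chain Lama1 was higher by 11.09, Krt18 by 10.66 and Krt8 by 8.56 on the log2 scale, and Krt19 was at least 466-fold higher, the keratins being those of simple epithelia. The lower gene was Vim, an intermediate filament gene, at -4.11 (adjusted p = 0.00342), named because it was the single exception. Vim was still high in the stem cell lines, with line means of 3.80 to 5.42, against 8.73 in RClone-2.

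Of the 16 measured genes on which the hormone or peptide acts in bone and growth plate, 1 was higher and 5 were lower in blastocyst lines (median -0.44), beside 9.13% higher and 23.3% lower over all probes, and without scaling between arrays 2 were higher and 2 lower. Igf1, a growth factor induced in osteoblasts, was 7.30-fold lower in blastocyst than in bone marrow lines (adjusted p = 0.00585), with line means of -1.09, -0.86 and -1.49 in Fi1, Fi2 and Wk8, against 1.77, 1.14 and 2.26 in CL19, 3C3 and RMAPC-1, and its other 3 probes were lower as well (-1.85 to -0.93). Against RClone-2 the Igf1 probes disagreed, the brightest being at least 98.2-fold higher in stem cell lines and the others at -1.14, -0.48 and 1.42. Dkk1, a secreted Wnt antagonist, was 2.68-fold lower in lines from blastocysts (adjusted p = 0.0245) and at least 395-fold higher in stem cell lines than in RClone-2.

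Ihh, the hedgehog ligand that forms a loop with Pthlh in the growth plate, was 246-fold higher in stem cell lines than in RClone-2 by its brightest probe (adjusted p = 0.00358), and its other 3 probes were higher too, at least 19.1-fold and at least 29.9-fold for the 2 that were not well above background in RClone-2 and by 5.40 on the log2 scale for the third. Its line means were 2.09 in Fi1, 3.53 in Fi2 and -0.42 in Wk8, against 4.87, 4.59 and 4.32 in CL19, 3C3 and RMAPC-1, and -4.78 in RClone-2, and the difference between the origins did not pass (-2.86, adjusted p = 0.0654). Gli1, a transcription factor induced by hedgehog signals, was at least 4.26-fold higher in stem cell lines by its brightest probe, with its other 2 probes at least 2.34-fold higher (adjusted p = 0.0426) and at 0.16 (adjusted p = 0.574).

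Cyp24a1, which degrades vitamin D hormone, was at least 2.18-fold lower in blastocyst lines, with 0 of 6 arrays above background, than in bone marrow lines. Il6, a cytokine, was above background on 4 of 6 blastocyst arrays and on 0 of 6 bone marrow arrays (adjusted p = 0.0459). It is the 1 gene of the list counted as higher in blastocyst lines. The lower bound of its difference was 1-fold, so no size can be given. Fi2, at -7.01, lay close to RMAPC-1, at -7.30. Without array A of RMAPC-1 the Il6 call was lost (limma adjusted p = 0.0594). Tnfsf11, which encodes the osteoclast factor RANKL, was well above background on 0 of 14 arrays, and Sost, which encodes sclerostin, on 1. Against RClone-2, 4 of the 16 were higher and 4 lower in stem cell lines (median 0.08), beside 25.3% and 22.5% over all probes.

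The genes whose line means were most like those of Pth1r were sought among 12436 genes with a symbol, by the root mean square difference after centring each gene over the lines. Over the 7 lines the nearest was Lama1, at 0.17 on the log2 scale with a Pearson r of 0.999, followed by Slc2a10, a glucose transporter family member, at 0.22, Myo5b, a vesicle motor, at 0.25, Igsf1 at 0.29 and the lipase Lipg at 0.32. Slc2a10, Myo5b, Igsf1 and Lipg were not well above background on either array of RClone-2, so their distances and order over 7 lines rest on background signals there. Lama1 had line means of 7.63, 7.77 and 8.08 in Fi1, Fi2 and Wk8, against 7.16, 6.50 and 6.78 in CL19, 3C3 and RMAPC-1, and -3.77 in RClone-2. Since likeness over the same lines chose these genes, their differences between blastocyst and bone marrow lines are a description with no test, 1.01 for Lama1, 0.72 for Slc2a10, 0.94 for Myo5b, 0.54 for Igsf1 and 1.20 for Lipg. These correlations share the arrays, and over 7 lines they rest mainly on RClone-2.

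**Figure D5:**
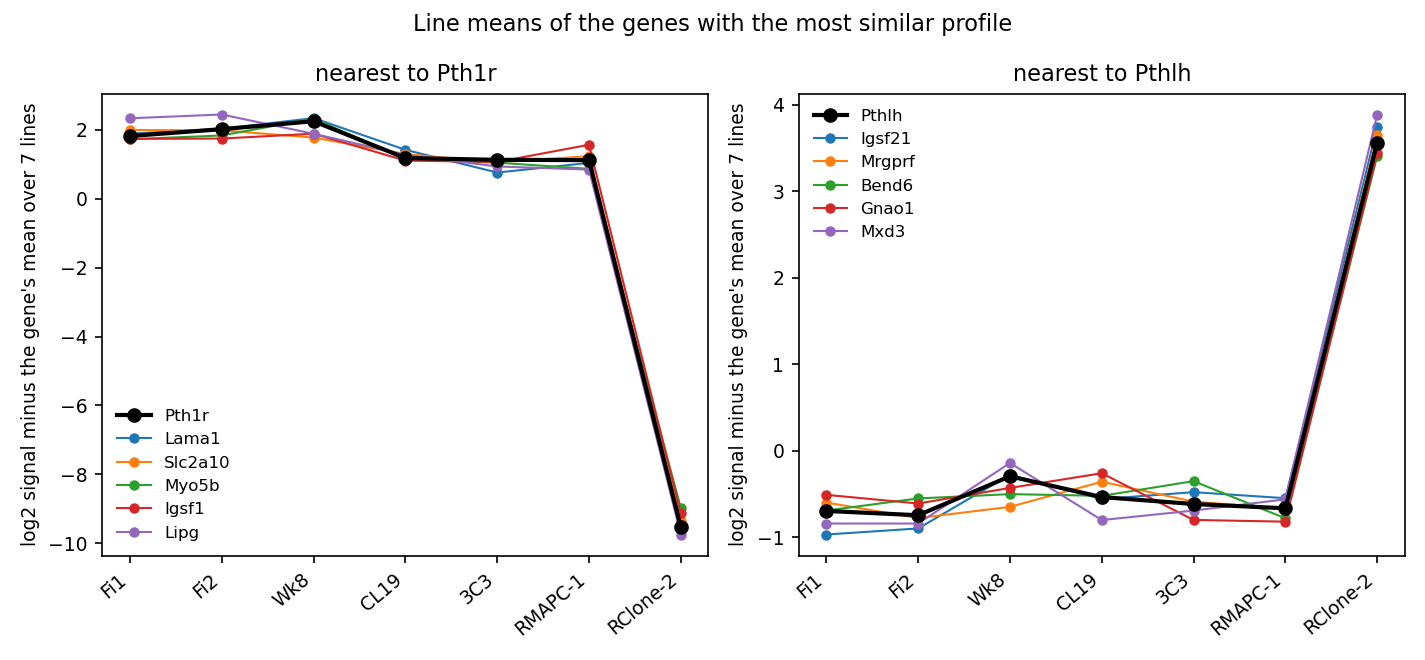
Line means of Pth1r and its 5 nearest genes (left) and of Pthlh and its 5 nearest genes (right), as log2 signal minus the gene's mean over the 7 lines. In the left panel all 6 genes are lowest in RClone-2, and in the right panel all 6 are highest there, with the stem cell lines of both origins close together.

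Over the 6 stem cell lines alone, which leaves out the contrast used for selection, other genes came nearest to Pth1r: Plekho1 at 0.04, Mapk6 at 0.06, and Fbxo4, Lrrc8d and Gusb at 0.07. Plekho1 had line means of 1.62, 1.82 and 2.11 in Fi1, Fi2 and Wk8, against 1.04, 0.89 and 0.87 in CL19, 3C3 and RMAPC-1. In these lines the likeness covers a range of about 1 log2 unit.

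For Pthlh the nearest genes over 7 lines were Igsf21 (0.15), Mrgprf (0.16), Bend6 (0.17), Gnao1 (0.18) and Mxd3 (0.19), which were lower in stem cell lines than in RClone-2, with differences of -4.26 for Mrgprf, -3.98 for Bend6, -4.01 for Gnao1, which was above background on 6 of 12 stem cell arrays, and -4.54 for Mxd3, and at least 5.44-fold for Igsf21. Igsf21 was not well above background on any stem cell array. Over the 6 stem cell lines the nearest were Bzw2, Ubxn2a, Ociad1 and Gpd2 at 0.04 and Ddi2 at 0.05, genes that, like Pthlh, were highest in Wk8 among the stem cell lines and close to level in the other stem cell lines.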

How the data were processed

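Per the file headers the authors extracted the arrays with Agilent Feature Extraction 10.7.3.1, per the submitters' processing notes as well, and the probe positions refer to rn4. The deposited scanner files give processed signal, mean signal and local background as intensity, not scaled between arrays, and flags as other values of 0 or 1. The deposited series table holds log2 values that, sorted, equal the log2 processed signals within 5.15e-14, and it was not used to name probes.

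Here log2 processed signals were taken relative to the 75th percentile of the 43379 non-control spots of each array, and 65 to 193 outlier spots per array were left out. A RefSeq table of a newer assembly named 20576 of 41012 probes, and 20436 kept the name in the files. The 29300 probes that 1 or more lines had well above background on arrays A and B were tested. Arrays A and B were averaged per line, and limma 3.58.1 in R 4.3.3 (lmFit, eBayes, 4 residual degrees of freedom) compared 3 blastocyst with 3 bone marrow lines, and the mean of both with 1 mesenchymal line, with Benjamini-Hochberg adjustment over all probes and a threshold of 0.05. The fit was tested on simulated data. The number of arrays limits the precision.

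Members and gene lists were chosen with earlier results of these data known, and 1 gene first listed is not reported here and is left out of the list counts. Named genes are the receptor family, all markers, up to 4 genes per list and comparison with the largest differences among those past the threshold, and the 5 nearest genes. Alternatives were normexp correction (offset 50), other scalings, filters, blocks and samples left out. Fits within slides, without single RMAPC-1 arrays and with median centring were chosen after seeing the data. Figures were drawn with matplotlib 3.10.9.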

Additional observations from a re-analysis of the deposited data

Results flagged for a closer look

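Neither Pth1r nor Pthlh had an array that stood apart from the others of its origin. Each of 104 named genes was examined in both origins. In 11 of 208 groups of 6 arrays, the gap of the highest or lowest array to the nearest one exceeded 0.625 of the group's range. Of the 11, 5 were on an array of RMAPC-1. Chance gives such a gap in about 5% of groups of 6 independent values. The arrays here are A and B of each line and not independent, so that rate does not apply. The rule also misses 2 discordant arrays of 1 line, such as Sik1 in RMAPC-1 at 1.39 (A) and -2.88 (B). On array B of RMAPC-1, Sctr was at -5.06 while the other bone marrow arrays lay between -3.54 and -3.05. On the same array Pecam1 was at -1.94 (others -3.84 to -3.15) and Igsf1 at 4.09 (others 2.86 to 3.23). On array A of RMAPC-1, Pdzk1 was at 1.86 (others 3.00 to 3.21) and Stra6 at -2.94 (others -1.41 to -0.70). On array A of 3C3, Itpr3 was at -3.96 (others -2.99 to -2.64), and on array B of CL19, Pde2a was at -6.62 (others -7.93 to -7.52). Among blastocyst arrays, Gipr was at -2.66 on array B of Fi2 (others -3.38 to -3.16), Adcy2 at -7.15 on array A of Wk8 (others -8.62 to -8.08), Sox17 at 4.54 on array A of Wk8 (others 3.18 to 3.49) and Pde4b at -5.77 on array A of Fi1 (others -8.61 to -8.09). Without array A of RMAPC-1 the difference of Pth1r between the origins was 0.86, and without array B 0.93.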

How the results depend on the processing

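The difference of Pth1r between blastocyst and bone marrow lines kept its direction in all 21 alternatives and its call in 17, and leaving out each stem cell line in turn gave 0.78 to 1.00. It did not pass with the slide pair as a term (0.86), with slide as a block (0.86), without the A arrays (0.88) or within slides 1 and 3 (0.86). The slide settings rest on 1 contrast, that of the blastocyst lines with CL19, the one bone marrow line on slides 1 and 3. The cause of the lost calls was not tested. With no filter on dim probes, the brightest probe per gene or the array letter as a block, the difference of Pth1r stayed at 0.89. These settings cannot change the estimate for a gene with 1 probe, measured on both arrays of every line. The 21 alternatives are therefore not separate checks. The difference of Pthlh, 0.02, turned to -0.05 with the pair term, with slide as a block and within slides 1 and 3, to -0.03 without the B arrays, ranged from -0.12 to 0.11 when lines were left out, 0.00 of it without RMAPC-1, and passed at 0.50 without scaling. Against RClone-2, Pth1r (11.14) moved to 9.03 with normexp, 11.76 without the A arrays and 10.52 without the B arrays, and Pthlh (-4.16) to -3.14 with normexp and -3.95 without scaling. Probes called between the origins, 9492, became 1621 with normexp, 0 with the pair term and within slides 1 and 3, 3597 with slide as a block, 3024 without the A and 6180 without the B arrays, 5604 without array A of RMAPC-1, and 3587 to 7128 without one line. List genes called, 46 with Pth1r, became 18, 0, 0, 22 and 22 under the first of these settings through the one without the A arrays, and 21 to 40 without one line (28 without Fi1, 22 without 3C3, 21 without RMAPC-1). Probes called against RClone-2, 13990, became 7026 with normexp, and the share of them higher in stem cell lines, 52.9%, was 63.6% without scaling. Grk6 turned to 0.03 between the origins without scaling, and Gna12 to -0.05 against RClone-2 within slides 2 and 4. With the array letter as a replicate block and line as a random block, a pairing of arrays by letter only, 11989 probes were called and Pth1r was at 0.89. Signal near background limits the size of differences from RClone-2 for dim probes.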
